A study of Mus musculus with 8 samples.

Results

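The complement and coagulation factors described here are a list of 39 mouse genes of the plasma complement, clotting and clot-dissolving systems, read in liver on Affymetrix arrays. A gene was taken where the array annotation assigned a probe set to it alone, and where several did, the brightest on average was used. In all, 37 of the 39 genes had such a probe set, 16 of complement and 21 of coagulation and fibrinolysis, among 12393 genes in the table. C3 and Cpb2 were not analysed here. Every array came from liver RNA of mice on a C57BL background that were fed standard chow, with 2 arrays for each of 4 genotypes. Wild-type mice carried neither deletion, SHP-/- mice lacked the small heterodimer partner, and OB-/- mice lacked leptin. OB-/-/SHP-/- mice, the double knockout, lacked both. The sources used here do not give age, sex, how each allele was made, or whether an array held 1 animal or a pool, so p-values measure the spread between these arrays, which may be technical.

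Complement is a cascade of plasma proteases and binding proteins that coats microbes and, through its terminal components, assembles a pore in their membrane. Coagulation is a parallel cascade that ends with thrombin cutting fibrinogen into fibrin, and plasmin later dissolves the clot. Hepatocytes secrete most of these proteins, so liver is the main source of their supply to plasma. SHP, encoded by Nr0b2, is a nuclear receptor that lacks a DNA-binding domain and represses other nuclear receptors in liver. Leptin is the fat-derived hormone that restrains feeding, and mice without it are obese with fatty livers.

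The liver label held in the arrays, since 7 of 8 hepatocyte markers were measured and their median level lay between 13.53 and 13.60 on the log2 scale in every genotype. Nr0b2 itself read 8.74 and 8.71 in wild-type and 7.78 and 8.31 in SHP-/- liver, against 8.01 and 8.01 in OB-/- liver and 7.11 and 6.66 in the double knockout. Its probe set was not placed relative to the deleted part here, so these values do not check the SHP labels. On 1 array, OB-/- replicate 1, the female transcript Xist read 7.41 against 4.31 to 4.70 on the others, while the Y-linked Eif2s3y read 6.57 to 7.50 on all. The SHP-/- arrays differed from each other in stress genes, with Fos at 11.95 and 6.98 and the acute-phase gene Saa2 at 8.98 and 12.23. The 3' minus 5' offset of Gapdh, which grows as RNA degrades, averaged 0.90 for wild-type and 0.27 for SHP-/-, and was near 0 for OB-/- (-0.04) and the double knockout (0.07). The same offset of Actb averaged 1.88 and 1.30 for the former pair and 0.83 and 0.86 for the latter. Among the 37 genes, values ran from 5.32 to 13.56 on the log2 scale and the median gap between the arrays of a genotype was 0.12.

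A large share of these genes was lower in livers without leptin, most of all the terminal components of complement. Differences are log2 values, so that 1 unit is a 2-fold change, and ± gives the moderated standard error (SE) over 2 arrays a genotype. In OB-/- against wild-type, 16 of 37 fell and 1 rose (limma, adjusted p below 0.05 over all genes), or 43.2% lower, while 9.36% of all genes tested fell and 7.58% rose. Counted in either direction, 45.9% of the members changed against 16.9% of all genes. Their median log2 difference was -0.30, against -0.01 over all genes. In OB-/-/SHP-/- against SHP-/-, the same question without SHP, 12 of 37 fell and 0 rose, or 32.4% against 5.62% of all genes. There the median was -0.22 against 0.03, and 10.6% of all genes changed in either direction. Both leptin-null arrays lay below both leptin-intact ones for 26 of 37 genes with SHP present, where 30.0% of all genes did, and for 24 without SHP, where 24.6% did. In a bulk sample, fewer cells of a type and less RNA per cell cannot be told apart. Hepatocyte markers summed to between 69186 and 73483 linear units in OB-/- and to between 74107 and 78044 in wild-type, and of the 7 markers 0 rose and 2 fell. Without wild-type replicate 1 the first count was 11, and the second was 7 without OB-/-/SHP-/- replicate 2 or without SHP-/- replicate 2.

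**Figure D1:**
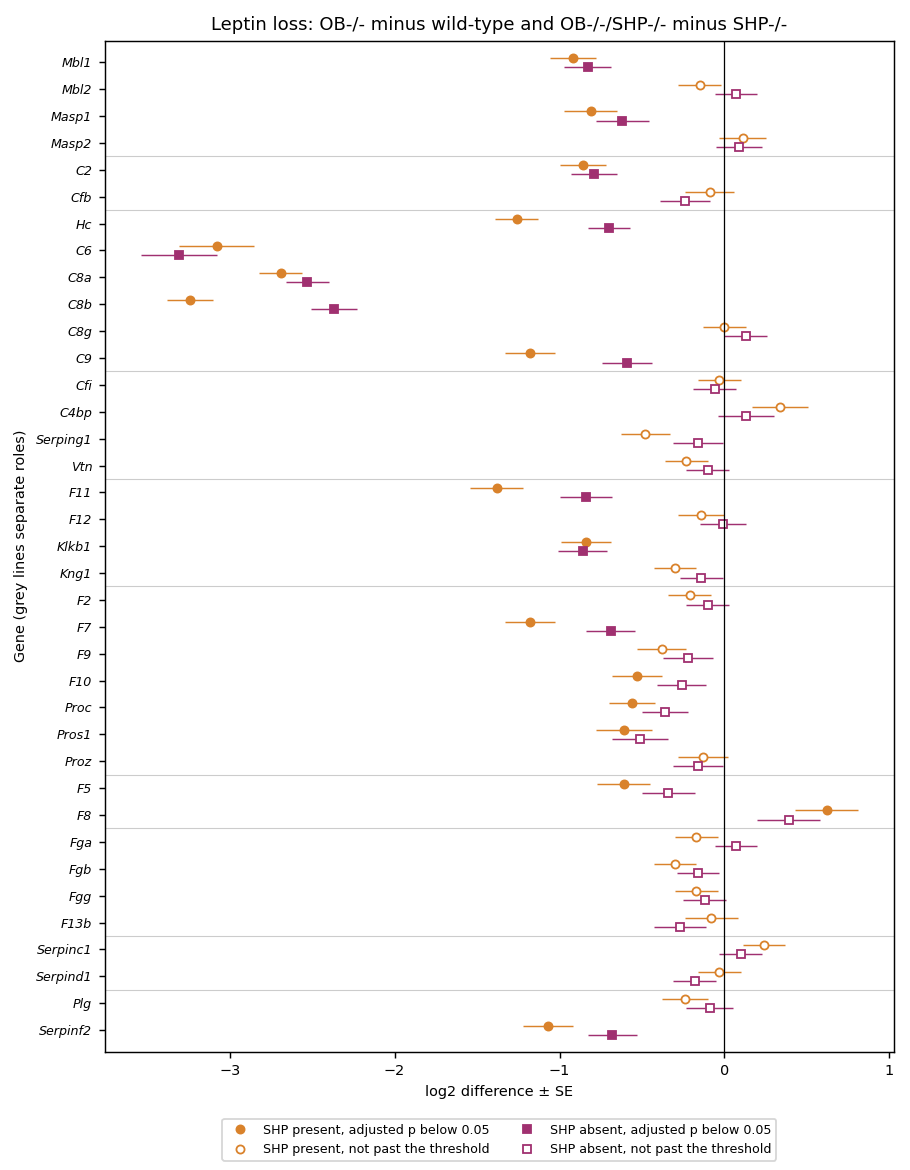
Log2 difference ± moderated SE between leptin-null and leptin-intact liver for all 37 genes, with SHP present (circles, OB-/- minus wild-type) and with SHP absent (squares, OB-/-/SHP-/- minus SHP-/-); filled symbols passed the test and grey lines separate roles. C6, C8a and C8b lie at -2.37 or lower in both comparisons, while C8g and Cfi lie near 0.

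The terminal components are the proteins that bind in turn to build the membrane attack complex. Of the 6 measured, 5 fell in each leptin comparison and C8g did not pass in either. Of all genes, 9.36% fell with SHP present and 5.62% with SHP absent. C6, which joins the complex after C5b, read 10.95 and 10.17 in wild-type and 10.52 and 10.81 in SHP-/- liver, against 7.49 and 7.48 in OB-/- liver and 7.14 and 7.57 in the double knockout. Every leptin-null array was more than 2 log2 units below every leptin-intact one, and the wild-type arrays differed by 0.78, the widest gap between replicates among all 37 genes. C6 fell 8.46-fold with SHP present (-3.08 ± 0.23, adjusted p = 9.7e-06 by limma) and 9.88-fold with SHP absent (-3.31 ± 0.23, adjusted p = 7.5e-06). The OB-/- array with the high Xist value read 7.49 for C6 and the other 7.48. Any part of sex or sample make-up in the C6 fall was not tested.

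C8 is made of an alpha, a beta and a gamma chain, each from a gene of its own, and the alpha and beta chains insert in the membrane. C8a, the alpha chain, stood at 11.74 and 11.69 in wild-type and 11.78 and 11.94 in SHP-/- liver, against 9.05 and 9.0 in OB-/- liver and 9.40 and 9.27 in the double knockout. C8b, the beta chain, stood at 11.31 and 11.11, 11.37 and 11.44, 8.04 and 7.90, and 8.93 and 9.15 in the same order of genotypes. Leptin-intact and leptin-null arrays did not overlap for either gene. C8a fell 6.47-fold in OB-/- (-2.69 ± 0.13, adjusted p = 3.2e-07) and 5.77-fold in OB-/-/SHP-/- against SHP-/- (-2.53 ± 0.13, adjusted p = 6.0e-07). C8b had the deepest fall of the 37 genes with SHP present, 9.44-fold (-3.24 ± 0.14, adjusted p = 1.3e-07), and 5.17-fold with SHP absent (-2.37 ± 0.14, adjusted p = 2.5e-06). In contrast, the gamma chain C8g, a lipocalin that is linked to the alpha chain, read between 12.15 and 12.36 on all 8 arrays. The 95% interval of its difference was -0.29 to 0.29 in OB-/- against wild-type and -0.16 to 0.42 in OB-/-/SHP-/- minus SHP-/-. The genes of the alpha and beta chains are direct neighbours, with 0 protein-coding genes between them in the RefSeq gene order.

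**Figure D2:**
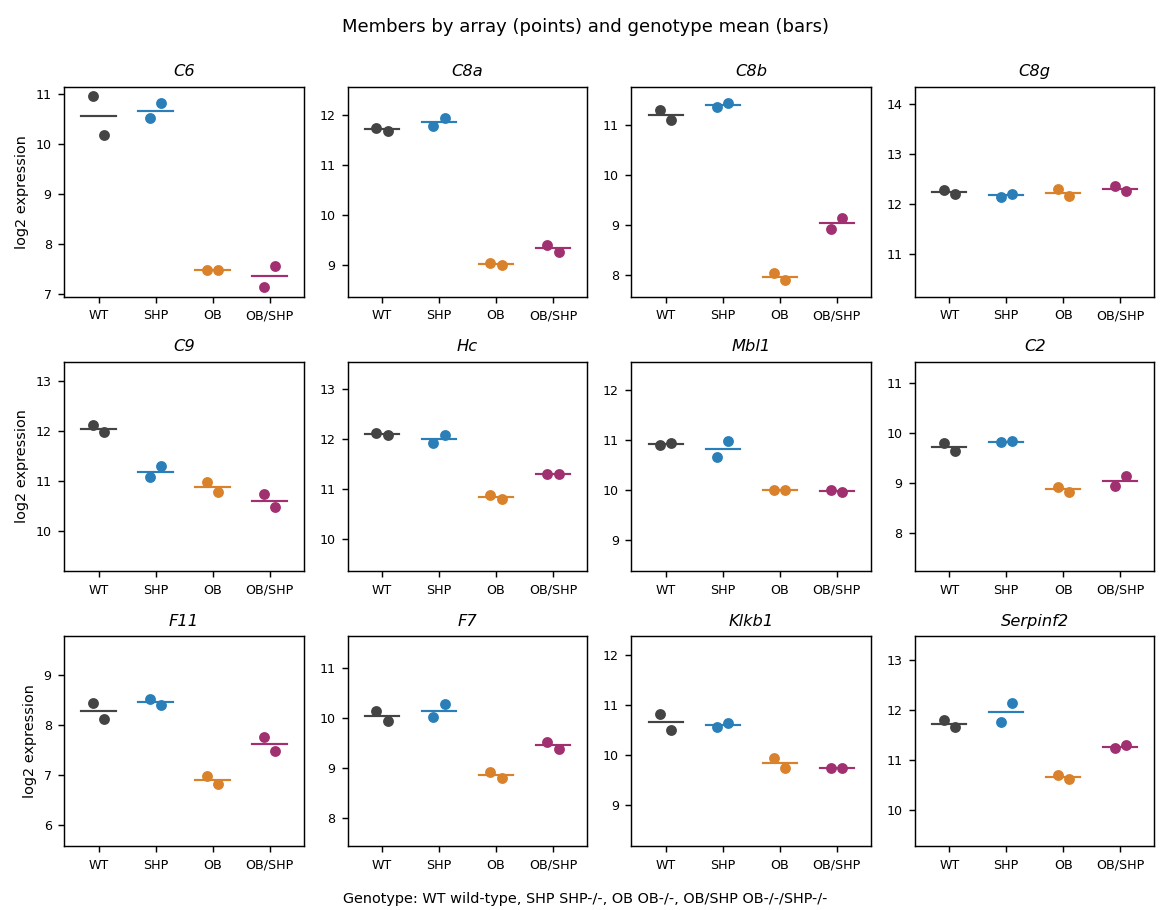
Log2 expression of 12 of the 37 genes on each array (points) with the mean of each genotype (bars); every panel spans the same number of log2 units around its own middle. In C6, C8a and C8b the leptin-null arrays lie far below the leptin-intact ones, C8g is level, and C9 is lower in SHP-/- as well as in both leptin-null genotypes.

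Hc encodes complement C5, whose cleavage starts the terminal pathway. It read 12.11 and 12.08 in wild-type and 11.91 and 12.08 in SHP-/- liver, against 10.88 and 10.79 in OB-/- liver and 11.30 and 11.29 in the double knockout. Its fall was 2.40-fold with SHP present (-1.26 ± 0.13, adjusted p = 1.1e-04) and 1.62-fold with SHP absent (-0.70 ± 0.13, adjusted p = 0.00683), the latter lost without SHP-/- replicate 2 (adjusted p = 0.0557). C9, which polymerises to form the pore, read 12.11 and 11.98 in wild-type and 11.08 and 11.29 in SHP-/- liver, against 10.97 and 10.77 in OB-/- liver and 10.73 and 10.47 in the double knockout. Wild-type alone was high, and the other genotypes lay below it on every array. C9 fell by 1.18 ± 0.15 in OB-/- against wild-type (2.26-fold, adjusted p = 4.5e-04) and by 0.59 ± 0.15 in OB-/-/SHP-/- against SHP-/- (adjusted p = 0.0328). The second call was lost in the fit to those genotypes alone and without any 1 of 4 arrays, both of wild-type, OB-/-/SHP-/- replicate 2 and SHP-/- replicate 2 (adjusted p up to 0.191).

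Upstream of the terminal pathway, complement is started by recognition of sugars, by antibody or by slow spontaneous activation. In the lectin arm, Mbl1, a mannose-binding lectin, read 10.90 and 10.94 in wild-type and 10.67 and 10.98 in SHP-/- liver, against 10 and 10 in OB-/- liver and 10.01 and 9.97 in the double knockout. It fell 1.89-fold (-0.92 ± 0.14, adjusted p = 0.00135) and 1.78-fold (-0.83 ± 0.14, adjusted p = 0.00416) in the respective leptin comparisons. The second lectin gene, Mbl2, differed by -0.15 with a 95% interval of -0.44 to 0.14 in OB-/- and by 0.07 (-0.22 to 0.36) without SHP, and passed in neither. Masp2, a protease that cuts C4 and C2, did not pass either, at 0.11 and 0.09.

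Masp1, the other lectin-pathway protease gene, read 9.96 and 9.85 in wild-type and 10.10 and 9.95 in SHP-/- liver, against 9.05 and 9.13 in OB-/- liver and 9.61 and 9.20 in the double knockout. The brightest of its 5 probe sets fell by 0.81 in OB-/- and by 0.62 without SHP. The others did not follow, with differences of 0.07, 0.33, 0.30 and 0.01 in OB-/-, and with the mean of its probe sets the call was lost (adjusted p = 0.936 and 0.740). The first call was also lost without wild-type replicate 1 (adjusted p = 0.0512), and the second in the fit to the compared genotypes and without OB-/-/SHP-/- replicate 2 or either SHP-/- array (adjusted p up to 0.195). Masp1 makes several proteins by alternative splicing, and which of them each probe set reads was not tested.

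C2 and Cfb encode the related proteases of the classical and alternative convertases and are direct neighbours in the genome. C2 read 9.81 and 9.65 in wild-type and 9.82 and 9.84 in SHP-/- liver, against 8.92 and 8.83 in OB-/- liver and 8.95 and 9.14 in the double knockout. It fell 1.81-fold in OB-/- (-0.86 ± 0.14, adjusted p = 0.00163) and 1.73-fold without SHP (-0.79 ± 0.14, adjusted p = 0.00448), with no overlap between leptin-intact and leptin-null arrays. Cfb lay between 10.95 and 11.43 on all arrays and differed by -0.09 (95% interval -0.41 to 0.24) and -0.24 (-0.57 to 0.08).

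The plasma inhibitors of complement, 4 genes in all, passed in no comparison. Of all genes, 16.9% changed in OB-/- against wild-type and 10.6% in OB-/-/SHP-/- against SHP-/-, so this does not set the 4 genes apart. Cfi, the protease that inactivates C3b and C4b, stayed between 12.49 and 12.68, and C4bp, its cofactor for C4b, differed by 0.34 in OB-/- and 0.13 without SHP. Vtn, which encodes vitronectin, a blocker of pore insertion, differed by -0.23 and -0.10. Serping1, the C1 inhibitor, which also controls kallikrein and factor XII, came nearest to the threshold. It read 11.88 and 11.68 in wild-type, 11.42 and 11.19 in OB-/-, 11.92 and 11.66 in OB-/-/SHP-/- and 11.91 and 12 in SHP-/-. Its difference in OB-/- was -0.48 ± 0.15 (adjusted p = 0.0519), and it passed in 10 of 18 alternatives (adjusted p between 0.0151 and 0.287).

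Among the coagulation and fibrinolysis genes, 8 of 21 fell and 1 rose in OB-/- against wild-type, where 9.36% of all genes fell and 7.58% rose. Without SHP 4 of 21 fell, where 5.62% of all genes did. The contact system, which starts clotting on charged surfaces and releases bradykinin, split between its genes. F11, factor XI, read 8.45 and 8.12 in wild-type and 8.53 and 8.41 in SHP-/- liver, against 6.98 and 6.83 in OB-/- liver and 7.76 and 7.49 in the double knockout. Both OB-/- arrays were the lowest, those of OB-/-/SHP-/- were intermediate, and the 3 sets did not overlap. F11 fell 2.60-fold with SHP present (-1.38 ± 0.16, adjusted p = 2.0e-04) and 1.79-fold with SHP absent (-0.84 ± 0.16, adjusted p = 0.00698), the second call lost without OB-/-/SHP-/- replicate 2 (adjusted p = 0.0579). Klkb1, plasma kallikrein and the direct neighbour of F11, read 10.82 and 10.50 in wild-type and 10.55 and 10.64 in SHP-/- liver, against 9.93 and 9.73 in OB-/- liver and 9.73 and 9.74 in the double knockout. It fell by 0.84 with SHP present and by 0.86 ± 0.15 with SHP absent (adjusted p = 0.00448 by limma). Both calls were kept in every alternative. F12, factor XII, differed by -0.14 (95% interval -0.44 to 0.16) and -0.01 (-0.31 to 0.29). Kng1, the kininogen that carries bradykinin, differed by -0.30 and -0.14 on its brighter probe set and fell by 0.67 and 0.61 on the other (adjusted p = 0.0117 and 0.0301 over all probe sets).

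The vitamin K-dependent proteins carry a carboxylated domain that binds calcium and membranes. Of 7 genes, 4 fell in OB-/- and 1, F7, also fell without SHP, where 9.36% and 5.62% of all genes fell. F7, factor VII, the partner of tissue factor, read 10.14 and 9.95 in wild-type and 10.02 and 10.28 in SHP-/- liver, against 8.93 and 8.80 in OB-/- liver and 9.53 and 9.39 in the double knockout. Its fall was 2.27-fold with SHP present (-1.18 ± 0.15, adjusted p = 3.4e-04) and 1.61-fold without (-0.69 ± 0.15, adjusted p = 0.0136). The latter call was lost in the fit to the compared genotypes and without OB-/-/SHP-/- replicate 2 or SHP-/- replicate 2. That difference ran from -0.82 to -0.56 over the alternatives. F7, F10 and Proz lie in a row in the genome. F10, factor X, fell by 0.53 and Proz, a cofactor for inhibition of factor Xa, differed by -0.13 in OB-/-. The other probe set of Proz gave 0.46, so its sign depended on the probe set, and those of F10 gave -0.54 and -0.35, neither past the threshold (adjusted p = 0.0596 and 0.148 over all probe sets).

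Proc, the anticoagulant protein C, read 11.73 and 11.51 in wild-type and 11.17 and 10.94 in OB-/-, with 11.53 and 11.55 in SHP-/- and 11.14 and 11.21 in OB-/-/SHP-/-. It fell by 0.56 in OB-/-. Pros1, protein S, its cofactor, fell by 0.61, from 9.16 and 8.74 to 8.50 and 8.18, with 9.22 and 9.35 in SHP-/- and 8.76 and 8.79 in OB-/-/SHP-/-. The F10 arrays were 11.62 and 11.36 in wild-type and 11.66 and 11.65 in SHP-/- liver, against 10.91 and 11.02 in OB-/- liver and 11.26 and 11.53 in the double knockout. The calls of F10, Proc and Pros1 were each lost without OB-/- replicate 2 or wild-type replicate 1, and that of F10 also without OB-/- replicate 1 (adjusted p up to 0.243). F2, prothrombin, and F9, factor IX, did not pass, at -0.21 and -0.38 in OB-/-.

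Of the clotting cofactors, F5 and F8 moved in opposite directions in OB-/-. F5, factor V, read 11.13 and 10.84 in wild-type and 11.01 and 11.09 in SHP-/- liver, against 10.55 and 10.20 in OB-/- liver and 10.71 and 10.71 in the double knockout. It fell by 0.61, lost without OB-/- replicate 2 or wild-type replicate 1 (adjusted p up to 0.182), and its further probe set fell by 0.79 (adjusted p = 0.00355 over all probe sets). F8, factor VIII, made mainly by endothelial cells and not hepatocytes, was the member that rose, by 0.62. The other 36 genes lay above 5.5, the median of all probe set values, on every array, while F8 lay near it. It read 5.64 and 5.48 in wild-type and 5.93 and 5.32 in SHP-/- liver, against 6.16 and 6.19 in OB-/- liver and 5.92 and 6.12 in the double knockout. This rise did not pass with equal array medians or an intensity trend, nor without any 1 of the 4 arrays compared (adjusted p up to 0.210). Of 9 endothelial markers, 3 rose and 0 fell in OB-/-, where 7.58% of all genes rose and 9.36% fell. The summed level of these markers ran from 1313 to 1377 in OB-/- and from 901 to 1189 in wild-type. Their part in the F8 value was not tested.

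Of the genes that form and hold the fibrin clot, 0 of 4 passed in either leptin comparison. Of all genes, 16.9% changed with SHP present and 10.6% with SHP absent, so this count does not set the 4 genes apart. In OB-/- against wild-type all 4 differences were below 0, with a median of -0.17. For 3 of 4 both OB-/- arrays lay below both wild-type arrays, where 30.0% of all genes did. Fga, Fgb and Fgg, the fibrinogen chains, differed by -0.17, -0.30 and -0.17 in OB-/- and by 0.07, -0.16 and -0.12 without SHP. On every array they lay between 12.69 and 13.56. By limma, Fgb had an unadjusted p of 0.0439 in OB-/- and passed with an intensity trend (adjusted p = 0.0335). F13b, the carrier chain of the cross-linking enzyme, did not pass, at -0.08 and -0.27. The thrombin inhibitors Serpinc1 (antithrombin) and Serpind1 (heparin cofactor II) differed by 0.24 and -0.03 in OB-/-.

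In fibrinolysis, Plg, the precursor of plasmin, differed by -0.24 (95% interval -0.54 to 0.06) in OB-/- and -0.09 (-0.39 to 0.22) without SHP. Serpinf2, antiplasmin, its main inhibitor, read 11.79 and 11.65 in wild-type and 11.76 and 12.14 in SHP-/- liver, against 10.69 and 10.61 in OB-/- liver and 11.24 and 11.29 in the double knockout. It fell 2.10-fold with SHP present (-1.07 ± 0.15, adjusted p = 8.1e-04) and 1.60-fold without (-0.68 ± 0.15, adjusted p = 0.0176). Leptin-intact and leptin-null arrays did not overlap. The second call was lost in the fit to the compared genotypes and without either OB-/-/SHP-/- array or SHP-/- replicate 2. Its difference ran from -0.87 to -0.49 over the alternatives.

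Both leptin comparisons, which share no array, can be set side by side. Across the 37 genes the log2 differences correlated at r = 0.960 (Spearman's rho 0.901), and across all genes at r = 0.721. The 12 genes that fell without SHP are 70.6% of the 17 called with SHP and 100% of their own list. F5, F8, F10, Proc and Pros1 passed with SHP alone, but the interaction, which tests that difference, passed for 0 of 37 genes by limma. Over the 12393 genes tested the overlap was 40.6% of the first list and 65.1% of the second. The 3' minus 5' offsets also differed in each. That of Gapdh was -0.04 against 0.90 in the first comparison and 0.07 against 0.27 in the second, and that of Actb was 0.83 against 1.88 and 0.86 against 1.30. Their part in the falls was not tested.

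To show what lies in front of the genes with the deepest or paired falls, the 250 bases before the start site of C6, of the neighbours C8a and C8b, and of the neighbours F11 and Klkb1 are given from RefSeq (GRCm38.p6), read 5′ to 3′ on the gene's strand. Capitals mark matches to motifs searched on both strands: TGTTTAC (FOXA), GTTAAT (HNF1), CAAAGTCCA (HNF4), TTGCNNAA (C/EBP), TTCNNNGAA (STAT) and the core promoter box TATAAA.
C6 (chr15:4726960-4727209, + strand): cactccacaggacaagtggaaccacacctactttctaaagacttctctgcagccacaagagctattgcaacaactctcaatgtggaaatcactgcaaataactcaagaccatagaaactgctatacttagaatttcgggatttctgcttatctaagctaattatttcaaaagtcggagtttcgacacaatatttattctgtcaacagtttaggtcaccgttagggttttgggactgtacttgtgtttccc
C8a (chr4:104876399-104876648, - strand): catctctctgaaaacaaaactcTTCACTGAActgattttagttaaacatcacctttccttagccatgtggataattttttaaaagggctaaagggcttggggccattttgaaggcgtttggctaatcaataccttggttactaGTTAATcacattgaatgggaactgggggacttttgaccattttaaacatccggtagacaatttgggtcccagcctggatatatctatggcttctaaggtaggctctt
C8b (chr4:104766067-104766316, + strand): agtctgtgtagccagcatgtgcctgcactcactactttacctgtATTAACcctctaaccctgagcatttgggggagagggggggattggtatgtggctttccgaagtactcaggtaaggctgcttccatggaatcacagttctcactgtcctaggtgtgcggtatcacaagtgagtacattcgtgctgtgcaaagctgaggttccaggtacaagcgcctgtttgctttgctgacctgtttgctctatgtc
F11 (chr8:45262032-45262281, - strand): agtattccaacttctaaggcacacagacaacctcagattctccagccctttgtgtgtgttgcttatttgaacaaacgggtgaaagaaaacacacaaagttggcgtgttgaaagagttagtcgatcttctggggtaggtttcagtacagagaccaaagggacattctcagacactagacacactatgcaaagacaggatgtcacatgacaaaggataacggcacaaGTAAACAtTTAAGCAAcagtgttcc
Klkb1 (chr8:45294836-45295085, - strand): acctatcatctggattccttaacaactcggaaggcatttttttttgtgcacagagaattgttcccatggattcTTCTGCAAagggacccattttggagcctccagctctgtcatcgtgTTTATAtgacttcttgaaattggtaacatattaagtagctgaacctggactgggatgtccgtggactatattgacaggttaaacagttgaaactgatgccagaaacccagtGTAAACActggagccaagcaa

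The C6 window held none of these letters. C8a and C8b each held 1 GTTAAT match, on opposite strands of their windows, and C8a also held 1 STAT match. F11 and Klkb1 each held 1 FOXA match, starting 25 and 21 bases before the start site, and 1 C/EBP match. In F11 the C/EBP letters start 17 bases before the start site, close to the FOXA ones, and in Klkb1 they start 177 bases before it. Klkb1 also held 1 match to the core promoter box, 132 bases before its start. Of the 37 genes, 29 had a window in the table, 30 windows in all since C8g had 2, and neither window of C8g held a match. FOXA letters were in 2 of 30 member windows (6.67%) and in 3.17% of the 32851 windows in the table, GTTAAT in 9 of 30 (30.0%) against 6.43%, and CAAAGTCCA in 0 of 30 against 0.384%. The C/EBP letters were in 6 of 30 (20.0%) against 9.56%, the STAT letters in 6 of 30 against 7.02%, and TATAAA in 3 of 30 (10%) against 12.4%. Of the 13 windows of genes that fell in OB-/-, 3 held GTTAAT, as did 6 of the other 17. The motifs were chosen after the arrays' values for their factors were known, and a match is a description of letters only.

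Few of these genes passed the threshold with SHP loss in either background, and 2 arrays a genotype limit what can pass. In SHP-/- against wild-type, 1 of 37 changed, or 2.70%, against 0.323% of all genes, and that gene was C9, where 0.0968% of all genes fell. It fell 1.82-fold (-0.86 ± 0.15, adjusted p = 0.0437), with both SHP-/- arrays below both wild-type ones. The call was lost in the fit to these genotypes alone and without any 1 of 5 arrays, both wild-type, both OB-/- and SHP-/- replicate 1 (adjusted p up to 0.267). The median over the 37 genes was 0.11, against -0.03 over all genes, and 15 of 37 had SHP-/- arrays above both wild-type arrays, where 14.7% of all genes did. Of the others, Proz was highest, at 0.39 (95% interval 0.06 to 0.72, adjusted p = 0.598).

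In OB-/-/SHP-/- against OB-/-, 2 of 37 rose and 0 fell, or 5.41%, against 2.14% of all genes changed and 1.26% that rose. C8b rose 2.10-fold (1.07 ± 0.14, adjusted p = 0.00261) and passed in 18 of 18 alternatives (adjusted p up to 0.0475). Its OB-/-/SHP-/- arrays, at 8.93 and 9.15, lay above the OB-/- arrays and still more than 1.5 log2 units below every leptin-intact array. F11 rose 1.65-fold (0.72 ± 0.16, adjusted p = 0.0416), a call lost with equal array medians and without any 1 of the arrays of wild-type, OB-/- and OB-/-/SHP-/- (adjusted p up to 0.348). These comparisons reuse the OB-/- arrays that also gave the leptin falls.

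Smaller differences in the same comparison ran mostly upward, with 25 of 37 genes higher on both arrays than in OB-/-, where 21.0% of all genes were, and a median of 0.20 against 0.01. Serpinf2 differed by 0.62 ± 0.15 (adjusted p = 0.0731) and F7 by 0.60 ± 0.15 (adjusted p = 0.0739). Serping1 stood at 0.48, Hc at 0.46, Fga at 0.42 and Kng1 at 0.38. With an intensity trend in the variance the count was 7, since Serpinf2, F7, Hc, Fga and Kng1 then passed (adjusted p between 0.0141 and 0.0412, and 0.671 at most over the alternatives). C6, Mbl1 and Klkb1, which fell with leptin loss, differed by -0.13, -0.01 and -0.10, and C9 by -0.27.

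**Figure D3:**
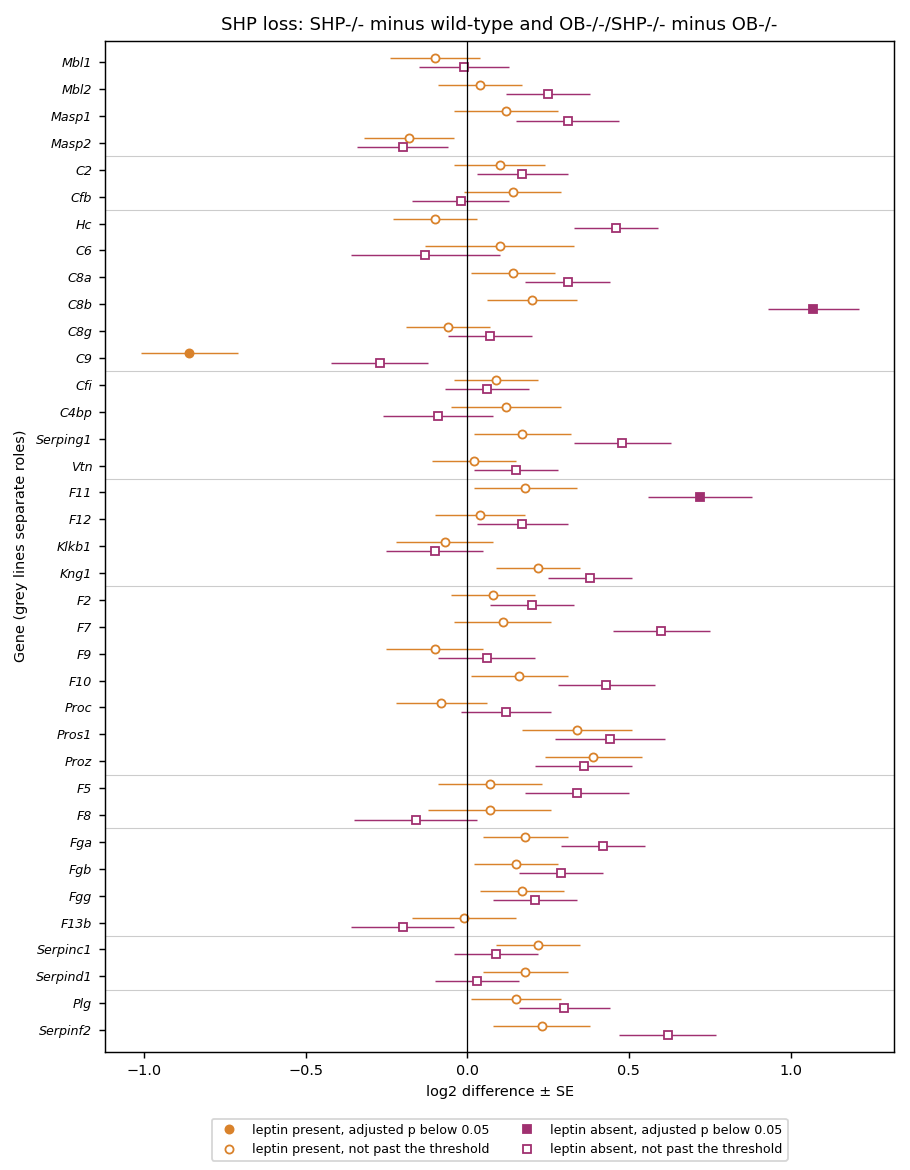
Log2 difference ± moderated SE between SHP-null and SHP-intact liver for all 37 genes, with leptin present (circles, SHP-/- minus wild-type) and absent (squares, OB-/-/SHP-/- minus OB-/-); filled symbols passed the test. C9 at -0.86 with leptin present, and C8b at 1.07 and F11 at 0.72 with leptin absent, are the filled symbols.

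Whether the SHP difference itself depended on leptin was asked by the interaction test, which passed for 0 of 37 genes by limma and for 0.549% of all genes. Of the 37, 5 had an unadjusted p below 0.05, where 8.28% of all genes did: C8b at 0.87 ± 0.20 (adjusted p = 0.125), C9 at 0.59, Hc at 0.56, F11 at 0.54 and F7 at 0.49. C8b passed with an intensity trend (adjusted p = 0.0433, and 0.0433 to 0.461 over 17 alternatives). A miss of the threshold with 2 arrays a genotype does not show that the responses were alike.

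Other genes of the pathway, from a list of 37 further complement genes of which 22 were measured, moved both ways in OB-/-. There 8 were higher and 4 lower, with a median of 0.38, where 7.58% of all genes were higher and 9.36% lower. C1ra, which encodes the C1r protease made by hepatocytes, read 11.13 and 10.95 in wild-type and 11.02 and 11.32 in SHP-/- liver, against 9.63 and 9.61 in OB-/- liver and 10.33 and 10.09 in the double knockout. It fell by 1.42 ± 0.15 (adjusted p = 1.4e-04) and, without SHP, by 0.96 ± 0.15 (adjusted p = 0.00299). The C1q chains, which form the recognition part of the same C1 complex and are made by macrophages, went the other way. C1qa read 6.82 and 6.65 in wild-type and 8.12 and 7.60 in SHP-/- liver, against 8.64 and 8.51 in OB-/- liver and 8.49 and 9.19 in the double knockout. C1qa rose by 1.84 ± 0.23 in OB-/- (adjusted p = 3.3e-04), and C1qb, named after its values were seen, by 2.13. Without SHP, C1qa rose by 0.98 and C1qc by 1.12 ± 0.26 (adjusted p = 0.0191). Both calls were lost in the fit to the compared genotypes and without OB-/-/SHP-/- replicate 2 or SHP-/- replicate 2.

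The C1q chains are 3 of the 12 macrophage markers measured. Of the 12, 11 rose in OB-/- against wild-type and 0 fell, where 7.58% of all genes rose. In OB-/-/SHP-/- against SHP-/- 4 rose, the 3 C1q chains and Mpeg1, and 0 fell. There 10.6% of all genes changed in either direction. The summed level of the 12 was 1509 to 1548 in wild-type, 2658 to 3781 in SHP-/-, 4392 to 4441 in OB-/- and 4769 to 6426 in OB-/-/SHP-/-. This sum includes the C1q chains and so moves in part with them. The part of macrophages in the C1q values was not tested. Vsig4, the complement receptor of Kupffer cells, rose by 1.88 in OB-/-, and Cfp, properdin, which stabilises the alternative convertase, by 1.32. Cd59a, a membrane inhibitor of the terminal complex, rose by 0.83 in OB-/- and 0.86 without SHP, the first lost without OB-/- replicate 1 or wild-type replicate 2 (adjusted p up to 0.0643). Crp, C-reactive protein, fell by 0.62 without SHP, lost without OB-/-/SHP-/- replicate 2 or SHP-/- replicate 2. It also fell with SHP present, from 11.43 and 11.28 in wild-type to 10.72 and 10.79 in OB-/-. That call was lost without OB-/- replicate 1 or wild-type replicate 1. In SHP-/- against wild-type, C1qa differed by 1.13 ± 0.23 and did not pass (adjusted p = 0.0862).

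**Figure D4:**
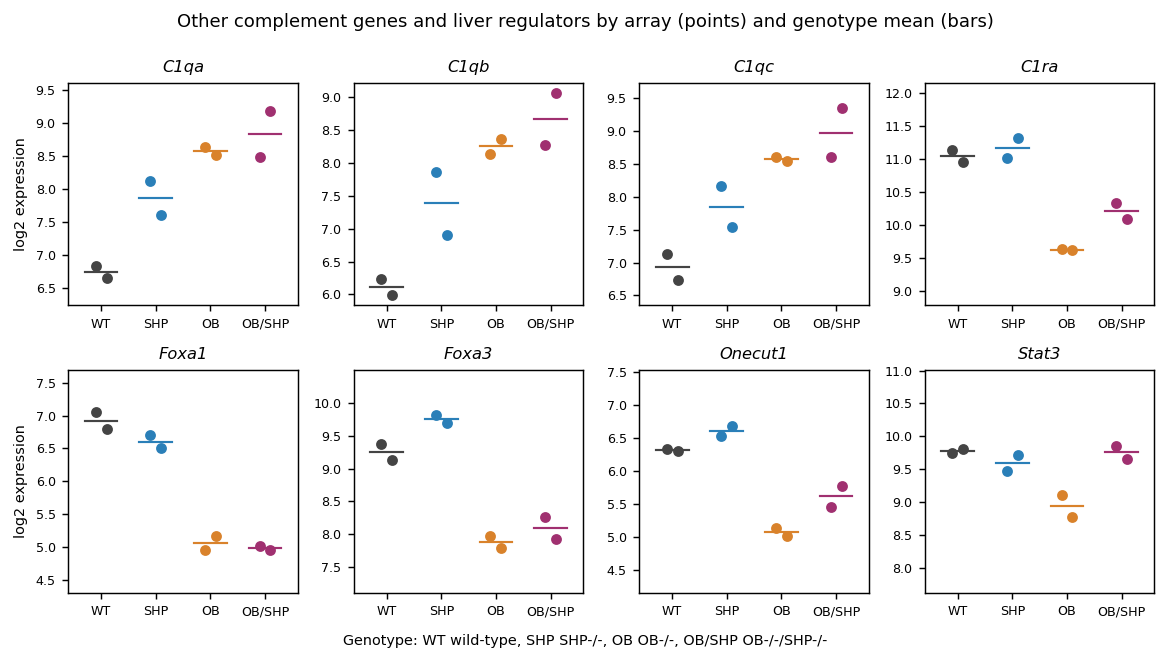
Log2 expression of 4 further complement genes and 4 liver regulators on each array (points) with genotype means (bars); panels span the same number of log2 units. The C1q chains are lowest in wild-type, C1ra is lowest in OB-/-, and Foxa1, Foxa3 and Onecut1 are lower in both leptin-null genotypes.

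Of 37 further coagulation and fibrinolysis genes, 28 were measured, and 5 rose and 2 fell in OB-/-, with a median of 0.07. Of all genes, 7.58% rose and 9.36% fell there. Serpina10, the inhibitor that works with protein Z, fell by 0.87 ± 0.16 (adjusted p = 0.00409). Anxa2, a surface receptor for plasminogen and its activator, rose by 2.46 with SHP present and 1.76 without, on the brightest of 3 probe sets, while the others read 0.50 and -0.15 in OB-/-. Habp2 rose by 0.78 and Lman1, a transport receptor for factors V and VIII, fell by 0.56 on their brightest probe sets, but at least 1 other probe set of each had the opposite sign (-0.45 for Habp2 and 0.96 for Lman1). In OB-/-/SHP-/- against OB-/-, Gas6, a vitamin K-dependent growth factor, fell by 1.13 ± 0.16 (adjusted p = 0.00312). Gas6 was higher by 0.68 in OB-/- against wild-type, a call lost without any 1 of the 4 arrays compared. Plgrkt, a plasminogen receptor, rose by 0.87 in OB-/-/SHP-/- against OB-/-, lost without either OB-/- array or OB-/-/SHP-/- replicate 2. It also rose by 1.04 in OB-/-/SHP-/- against SHP-/-, kept in all 18 alternatives. Outside the double knockout Plgrkt read 4.46 to 4.85, below every array median (5.45 to 5.56).

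Among 26 regulators of these genes in liver, 24 were measured, and 12 fell and 2 rose in OB-/-, with 8 lower and 1 higher without SHP. Of all genes, 9.36% fell and 7.58% rose in OB-/-. Without SHP 5.62% fell and 10.6% changed in either direction. Both lower counts include Nr0b2, the gene of SHP, and the first includes Hnf4a. Foxa1, a forkhead factor of hepatocytes, read 7.05 and 6.79 in wild-type and 6.71 and 6.50 in SHP-/- liver, against 4.95 and 5.17 in OB-/- liver and 5.02 and 4.95 in the double knockout. It fell by 1.86 ± 0.15 (adjusted p = 1.8e-05) and by 1.62 ± 0.15 (adjusted p = 6.9e-05). All its leptin-null values lay below every array median (5.45 to 5.56), so the sizes of these falls are less certain. Pparg, a regulator of fat storage, rose by 1.33 and 2.17, and it fell by 1.36 in SHP-/- against wild-type, lost without wild-type replicate 1 (adjusted p = 0.119). Foxa3, another forkhead factor, fell by 1.37 and 1.66, and Onecut1, another hepatocyte factor, by 1.26 and 0.99. Onecut1 read 5.01 to 5.78 in leptin-null liver, around the array medians. Hnf4a, named after its values were seen, fell by 0.76 on its brightest probe set, while its others ran from -0.20 to 1.24, so its direction depended on the probe set. Stat3, the mediator of interleukin-6 signalling, fell by 0.83 in OB-/-, a call lost without OB-/- replicate 2 (adjusted p = 0.0554). In the double knockout against OB-/- it rose by 0.81 ± 0.16 (adjusted p = 0.0220), a call lost without OB-/- replicate 2 or either array of the double knockout (adjusted p up to 0.259). Of its other probe sets, 1 gave -0.95 and 0.92 in these comparisons and the other 0.12 and 0.05. Across the arrays Stat3 read 9.75 and 9.80 in wild-type and 9.48 and 9.72 in SHP-/- liver, against 9.11 and 8.78 in OB-/- liver and 9.85 and 9.66 in the double knockout.

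Of 6 pancreas markers 4 rose and 1 fell in OB-/- against wild-type, where 7.58% of all genes rose and 9.36% fell. The summed level of these markers was 497 to 807 in OB-/-, against 335 to 337 in wild-type, 302 to 333 in SHP-/- and 229 to 236 in OB-/-/SHP-/-. Their part in these results was not tested. In all, 17 of the 37 genes passed in at least 1 comparison, and the other 20 had differences between -0.48 and 0.48 in the pairwise comparisons. With OB-/- replicate 1 and SHP-/- replicate 1 both left out, the counts were 14 for OB-/- against wild-type, 9 for OB-/-/SHP-/- against SHP-/-, 1 for OB-/-/SHP-/- against OB-/- and 0 for SHP-/- against wild-type.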

How the data were processed

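Liver RNA of 4 mouse genotypes was read on 8 Affymetrix arrays, 2 per genotype, grouped by the sample titles. The deposited values are taken as log2 expression, 1 per probe set, which the authors made in R (version 2.15.0, per the submitters' processing notes). Background correction, summarisation and log base were stated in no source used here. Values ran from 2.20 to 14.19 with array medians of 5.45 to 5.56, so base 2 and prior normalisation were inferred, and values were used as deposited. Summarised values hide probe-level disagreement, and the number of arrays limits precision.

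Of 22690 probe sets, 64 controls were left out, and 20380 named 1 gene by the array annotation, 691 several and 1555 none. Of the 37 genes analysed, 30 had 1 probe set and 7 had several. A model with 1 mean per genotype was fitted over 12393 genes and 8 arrays with limma 3.58.1 (R 4.3.3, data.table version 1.17.8), with 4 residual and 7.16 prior degrees of freedom. Tests were two-sided, with Benjamini-Hochberg adjusted p-values over all genes of each comparison and a threshold of 0.05. Errors are moderated SEs of a difference. The script was tested on simulated data. The members and lists were chosen with earlier results of these data known. Each member that passed was given by array, and in each comparison full statistics went to the 10 smallest adjusted p. Of the further lists, up to 4 genes per comparison were named by smallest adjusted p. Gene order and promoter sequences came from RefSeq (GRCm38.p6). Alternatives tried were an intensity trend, a filter on genes below 4.83, equal array medians, quantile normalisation, robust variance, the mean of probe sets, no x_at or s_at probe sets, a fit to the compared genotypes, a replicate block, and arrays left out. Summed marker levels are sums of 2 to the power of the log2 value.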

Additional observations from a re-analysis of the deposited data

How the results depend on the processing

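Calls among the 37 genes were recomputed under each alternative. The 5 counts are 17 for OB-/- against wild-type, 12 for the double knockout against SHP-/-, 2 for it against OB-/-, 1 for SHP-/- against wild-type and 0 for the interaction. In that order, leaving out 1 array gave 11 to 18, 7 to 12, 1 to 3, 0 to 1 and 0 calls. A remaining single array of a genotype is then assumed to vary like the others. In OB-/-/SHP-/- minus OB-/- the count was 1 with equal array medians, 7 with an intensity trend and 1 without OB-/- replicate 1 and SHP-/- replicate 1 together. In SHP-/- minus wild-type it was 0 in the fit to the compared genotypes and 0 without those arrays together, and the interaction had 1 call with the trend. The fit with the replicate number as a replicate block gave 18, 12, 2, 1 and 0 calls. Deviations of same-numbered arrays correlated at -0.11 to 0.20 across genes, so the numbers are not shown to pair arrays. Over all alternatives, 519 of 576 called member values stayed past the threshold, 57 did not, and 0 changed sign. Of the further genes, Hnf4a in OB-/- read 0.14 with the mean of probe sets and 0.28 without x_at and s_at probe sets, Lman1 read 0.01 with the mean, and Habp2 read -0.45 without x_at and s_at probe sets, since other probe sets then represent them. Neither quantile normalisation nor equal array medians moved the median of all genes by over 0.1. Members called with any single array left out numbered 11 in OB-/- minus wild-type, 6 in OB-/-/SHP-/- minus SHP-/- and 1 in OB-/-/SHP-/- minus OB-/-.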
